A study of Mus musculus with 30 samples.

Results

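The 9 genes examined here encode molecules with which dendritic cells co-stimulate or restrain T cells: Cd40, Cd80, Cd86, Cd83, Icosl, Tnfsf4, Tnfsf9, Cd274 and Pdcd1lg2. They were taken by symbol from a table of 25611 gene rows, in which each symbol had 1 row. All 9 passed the filter on low counts, as did 14808 rows in all. The data are 30 RNA sequencing libraries of mouse dendritic cells that were differentiated from bone marrow for 6 to 7 days with the cytokine FLT3L at 200 ng/ml. FLT3L cultures hold a mixture of plasmacytoid and conventional dendritic cells. Cells were wild type (WT) or carried a knockout of Rubcn (KO), which encodes Rubicon, a protein of LC3-associated phagocytosis. Cells of each genotype stayed untreated, or received OVA (ovalbumin, a model protein antigen) or apoptotic cells of the human T-cell line Jurkat for either 30 min or 4 h; each of the 10 groups has 3 libraries. Strain, age and the design of the Rubcn allele were not stated in the sources at hand. The labels do not say whether the 3 libraries of a group came from separate mice or cultures, so p-values measure only the spread between these libraries, which may be technical.

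A T cell that recognises its antigen needs further signals from the presenting cell. CD80 and CD86 bind CD28, which promotes activation, and CTLA-4, which restrains it; ICOS ligand, OX40 ligand (Tnfsf4) and CD137 ligand (Tnfsf9) engage receptors of activated T cells. CD40 is the receptor through which helper T cells license dendritic cells, and CD83 stabilises MHC class II and CD86 at the surface of maturing dendritic cells. PD-L1 (Cd274) and PD-L2 (Pdcd1lg2) bind the inhibitory receptor PD-1, and several of these genes are textbook targets of NF-kB and of interferon signalling.

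Promoter sequence was at hand for 4 of the 9 genes in RefSeq on GRCm38.p6, the mm10 assembly: Cd80, Icosl, Cd274 and Pdcd1lg2. Cd40, Cd83, Cd86, Tnfsf4 and Tnfsf9 are named only. The sequences are shown because these genes rose together after 4 h of apoptotic Jurkat cells, by the values given further on, while their promoters differ in base composition and in the motifs found. Each runs 5′ to 3′ on the + strand from 250 bases before the annotated start to 50 bases after it, and capitals mark the motif found. The windows are chr16:38458683-38458982 for Cd80, chr10:78069118-78069417 for Icosl, chr19:29367188-29367487 for Cd274 and chr19:29410669-29410968 for Pdcd1lg2.
Cd80: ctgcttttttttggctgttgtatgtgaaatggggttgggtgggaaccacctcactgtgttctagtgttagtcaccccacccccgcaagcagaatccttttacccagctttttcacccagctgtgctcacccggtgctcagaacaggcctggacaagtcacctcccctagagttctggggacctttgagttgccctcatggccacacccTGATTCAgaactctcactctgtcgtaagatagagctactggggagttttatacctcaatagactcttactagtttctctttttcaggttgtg
Icosl: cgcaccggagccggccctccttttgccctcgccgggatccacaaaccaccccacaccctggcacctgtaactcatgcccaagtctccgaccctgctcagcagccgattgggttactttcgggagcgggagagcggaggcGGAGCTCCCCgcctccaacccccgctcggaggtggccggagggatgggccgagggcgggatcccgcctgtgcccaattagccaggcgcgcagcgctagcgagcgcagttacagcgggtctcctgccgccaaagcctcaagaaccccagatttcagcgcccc
Cd274: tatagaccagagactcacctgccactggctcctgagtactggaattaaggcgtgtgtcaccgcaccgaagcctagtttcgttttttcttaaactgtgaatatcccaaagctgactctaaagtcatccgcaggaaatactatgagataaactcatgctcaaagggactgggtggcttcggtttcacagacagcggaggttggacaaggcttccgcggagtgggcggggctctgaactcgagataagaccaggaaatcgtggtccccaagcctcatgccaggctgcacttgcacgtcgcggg
Pdcd1lg2: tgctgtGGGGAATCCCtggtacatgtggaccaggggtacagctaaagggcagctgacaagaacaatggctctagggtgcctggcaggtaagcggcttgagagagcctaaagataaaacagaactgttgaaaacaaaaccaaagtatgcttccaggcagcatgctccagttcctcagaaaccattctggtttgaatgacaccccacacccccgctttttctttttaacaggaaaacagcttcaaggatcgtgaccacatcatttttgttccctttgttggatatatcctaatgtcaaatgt

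The Icosl promoter held 26 CpG dinucleotides and 68% GC, and the Cd274 promoter 15 CpG and 52.7% GC. Those of Cd80 (3 CpG, 49.7% GC) and Pdcd1lg2 (3 CpG, 46% GC) lay below the median of 7 CpG over all 32851 promoters of the table, whose median GC content was 52.7%. Both strands were searched for the NF-kB consensus of 10 bases and the interferon-response core (GAAA, any 2 bases, GAAA). The GAS element TTCNNNGAA and the AP-1 site TGANTCA were searched on both strands too, and the TATA box TATAAA on the strand of the gene only. A match to the NF-kB consensus lay at -111 to -102 from the start in Icosl, on the minus strand, and at -244 to -235 in Pdcd1lg2, where both strands match. The Cd80 promoter held 1 AP-1 site at -42 to -36, and no motif overlapped another. GENCODE M21 places the start of Cd80 further upstream, at 38455561, so its window covers the RefSeq start only. None of the 5 motifs was found in the 300 bases of Cd274. Of all promoters 8.46% held the NF-kB consensus, 3.44% the interferon-response core, 8.3% GAS, 7.81% AP-1 and 8.32% the TATA box. A match describes letters, not binding.

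On mm10 the count table places Cd40 (gene ID 21939) at chromosome 2, 165055636 to 165071654, and Cd83 (12522) at chromosome 13, 43785112 to 43803133. Tnfsf4 (22164) lies at chromosome 1, 161395438 to 161418206, Tnfsf9 (21950) at chromosome 17, 57105385 to 57107757, and Icosl (50723) at chromosome 10, 78069368 to 78079525. Cd274 (chromosome 19, 29367438 to 29388094) and Pdcd1lg2 (29410919 to 29472927) lie 22.8 kb apart, whereas Cd80 (chromosome 16, 38458933 to 38486932) and Cd86 (36603869 to 36666077) are 1793 kb apart. The gene IDs of these 4 are 60533, 58205, 12519 and 12524 in that order. In GENCODE M21, Cd274, Pdcd1lg2 and Tnfsf9 each overlap a noncoding gene of the opposite strand, and as the use of strand in counting is not given, reads of such pairs cannot be told apart.

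Library totals ran from 9.73 M to 51.6 M counts (median 44.9 M), the shallowest being KO replicate 3 of OVA at 30 min. Rubcn was lower in KO in every condition without overlap, at 73.6% to 84.7% of WT (edgeR quasi-likelihood FDR 1.69e-07 to 0.00148), so its transcript was reduced but not absent. The 6 dendritic cell markers checked (Flt3, Itgax, Zbtb46, H2-Ab1, Cd74 and Bcl11a) were at 74.8 CPM or more in every group. In WT 14.2% of all genes rose and 14.5% fell after 30 min of Jurkat cells, and 38.9% rose and 40.6% fell after 4 h. Of 17 T-lineage markers tested in WT, 10 rose and 0 fell after 30 min of Jurkat cells, and 13 rose and 3 fell after 4 h. Lef1, among the risers, had 0.285 CPM in untreated WT, 17.2 at 30 min and 38.4 at 4 h of Jurkat cells, and in KO 10.5 and 24 at these times, whereas Cd28 fell from 52.9 CPM to 23 at 4 h in WT and Cd7 from 200.2 to 115. For the members, KO replicate 1 of Jurkat cells at 30 min stood apart. It was the highest of its group for 9 of 9 members, from 1.15 times the mean of the other replicates for Tnfsf9 to 3.43 times for Cd40. Results that rest on it are given with and without it. Leaving it out was chosen after seeing the data, and it also narrows the spread that all groups share. Across the expressed genes, KO replicate 2 of Jurkat cells at 4 h differed most from its replicates. The chi-square of counts per degree of freedom was 129 and 134 for its pairs with replicates 1 and 3, and 4.97 between replicates 1 and 3. The highest value for a pair in any other group was 16.6.

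Levels are CPM, counts relative to a library's total after TMM scaling, and levels of different genes are compared per kb of exon. In untreated WT cells Cd83 stood first at 51.6 CPM per kb, followed by Icosl at 35.4, Cd86 at 19.9 and Tnfsf9 at 16.3. Cd40 had 5.44, Cd274 3.55 and Cd80 2.76 CPM per kb, and the ranges of these neighbours did not overlap. Pdcd1lg2 (0.163) and Tnfsf4 (0.139) were lowest, with overlapping ranges. After 4 h of Jurkat cells Cd83 still came first at 629 CPM per kb, and Cd40 had moved from the fifth place to the second, at 406. Icosl (209), Cd274 (184) and Cd86 (157) followed, and in this run each gene's range overlapped that of the next. Tnfsf9 was at 122, Cd80 at 22.1, Tnfsf4 at 4.23 and Pdcd1lg2 at 2.01 CPM per kb, so the PD-1 ligand Cd274 stood far above its neighbour Pdcd1lg2 in every WT group.

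**Figure D1:**
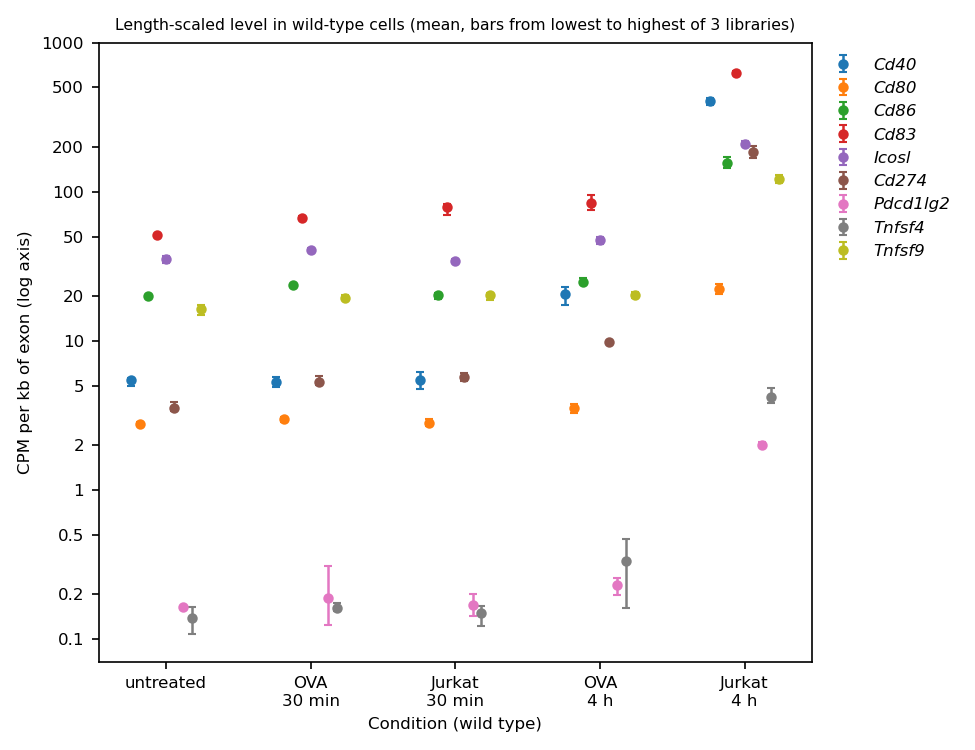
Level of each gene in wild-type cells as CPM per kb of exon on a log axis, by condition; points are means of 3 libraries and bars run from the lowest to the highest library. Cd83 is highest in all 5 conditions, and Cd40 moves from 5.44 in untreated cells to 406 after 4 h of Jurkat cells.

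The first question was how each treatment moved the ligands against untreated cells of the same genotype. Apoptotic Jurkat cells for 4 h raised all 9 genes in WT and in KO, from 5.91-fold (Icosl) to 74.6-fold (Cd40) in WT. OVA for 4 h raised 8 genes in WT, from 1.24-fold to 3.81-fold, and 5 in KO. At 30 min the changes were smaller: OVA raised 5 genes in WT and 2 in KO, and Jurkat cells 3 in WT and 5 in KO. No member fell in any of these 8 comparisons. Without KO replicate 1 of Jurkat cells at 30 min the counts in KO were 4 for OVA and 4 for Jurkat cells at 30 min, and 7 and 9 at 4 h. Of 15002 genes tested in that fit, 310, 855, 928 and 5587 were called higher, in the same order. With all libraries, 38.9% of all genes tested in WT and 37.5% in KO stand beside the 9 of 9 members higher after 4 h of Jurkat cells. Beside the counts for OVA at 4 h stand 11.9% and 5.94%. At 30 min the share of all genes called higher was 5.51% in WT and 1.88% in KO for OVA, and 14.2% and 8.72% for Jurkat cells. The members' median log2 change was 3.61 in WT and 2.97 in KO after 4 h of Jurkat cells, against -0.02 and -0.03 over all genes. Markers of cell types moved in the same 4 h Jurkat libraries. The summed level of 6 markers of type 2 conventional dendritic cells was 849.5 to 913 CPM in WT against 1573 to 1627 untreated, and 1001 to 1069 against 1655 to 1788 in KO, with Cd209a at 13.5 against 159 CPM and Clec10a at 12.7 against 161 CPM in WT. All 6 were called lower in WT and 5 in KO, where 40.6% and 41% of all genes were. Flt3, 1 of the 6 general dendritic cell markers, fell from 567 to 229.9 CPM in WT. The sum of those general markers was higher after 4 h of Jurkat cells, at 25992 to 27664 against 13861 to 16199 CPM untreated in WT. In KO it was 24891 to 26510 against 14520 to 16173 CPM. All 7 mature dendritic cell markers were higher in both genotypes, with sums of 6253 to 6731 CPM against 511 to 550.1 in WT. Their part in the members' rise was not tested. All calls here and below are edgeR quasi-likelihood tests at a Benjamini-Hochberg FDR under 0.05 over 14808 genes, and treatments of 1 genotype share the untreated libraries. In bulk RNA, fewer cells of a type and less RNA per cell cannot be told apart.

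Of the CD28 ligands, Cd86 was the more abundant. Cd86 was at 73.6, 73.8 and 71.3 CPM in untreated WT libraries, 96.9, 88.2 and 88.7 after 4 h of OVA and 529, 622 and 568 after 4 h of Jurkat cells. The 3 groups did not overlap, and the step with Jurkat cells was the larger by far. Its changes were 1.25-fold with OVA (log2 0.32, SE 0.0697, FDR 0.000901) and 7.86-fold with Jurkat cells (log2 2.97, SE 0.0728, FDR 1.55e-24). Cd80 stayed near 10 CPM until the late Jurkat libraries: 9.97, 10.5 and 10.1 CPM untreated, 13.9, 12.1 and 13.4 after 4 h of OVA and 80.6, 88.7 and 76.3 after 4 h of Jurkat cells. Both steps were free of overlap, at 1.29-fold (log2 0.36, SE 0.0797, FDR 0.0011) and 8.01-fold (SE 0.0738 on the log2 scale, FDR 1.68e-24). In KO, 4 h of Jurkat cells raised Cd86 6.62-fold, from 73.5 ± 1.1 to 487 ± 21.1 CPM (SD, n = 3). Cd80 in KO rose 6.89-fold, from 11.2 ± 0.247 to 77.2 ± 1.31 CPM. With 4 h of OVA neither passed the test in KO (Cd86 log2 0.17, SE 0.0698, FDR 0.119; Cd80 log2 0.18, SE 0.0792, FDR 0.151), but both did without the library that stands apart (FDR 0.0273 and 0.047). At 30 min of OVA, Cd86 had 87.1, 88.4 and 83.7 CPM in WT, above every untreated library (log2 0.25, SE 0.0697, FDR 0.0208), and 86.4, 92.8 and 83.5 CPM in KO (log2 0.26, SE 0.0711, FDR 0.0365). Of the 5 WT calls with 30 min of OVA, that of Cd83 held without any 1 library, while that of Cd86 was lost without WT untreated replicate 2 or 3 or WT OVA replicate 1 or 2 (FDR up to 0.084), and those of Cd274, Icosl and Tnfsf9 were each lost without 2 to 4 of the 6 libraries. Without WT OVA replicate 2, Cd83 was the 1 member called. In KO the call of Cd86 was lost without any 1 of the 6 libraries, and that of Cd83 without any 1 but KO OVA replicate 1.

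Icosl, the ligand of ICOS, had the smallest fold after 4 h of Jurkat cells and a high level throughout. Its libraries had 154, 165 and 172 CPM in untreated WT, 184, 190.0 and 193 after 30 min of OVA and 229.7, 218 and 206 after 4 h of OVA. With Jurkat cells it had 153, 164 and 159.5 CPM after 30 min, within the untreated range or below it, and 939, 1005 and 955 CPM after 4 h. It rose 1.16-fold with 30 min of OVA (log2 0.21, SE 0.0584, FDR 0.0186), 1.33-fold with 4 h of OVA (log2 0.41, SE 0.0584, FDR 3.95e-06) and 5.91-fold with 4 h of Jurkat cells (log2 2.56, SE 0.0612, FDR 8.62e-25). In KO the level went from 158 ± 7.04 CPM untreated to 183 ± 6.06 CPM with 4 h of OVA (log2 0.20, SE 0.0585, FDR 0.0199) and 826 ± 26.3 CPM with 4 h of Jurkat cells (log2 2.38, SE 0.0608, FDR 4.45e-24). The KO call with OVA was lost without KO untreated replicate 1 or KO OVA replicate 1 or 3 (FDR up to 0.108).

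Cd40, the receptor for the licensing signal of helper T cells, moved most. It was at 17.1, 19.3 and 19.2 CPM in untreated WT, 78.7, 73.8 and 59.5 after 4 h of OVA and 1303, 1455 and 1392 after 4 h of Jurkat cells, with wide gaps between the groups. These changes were 3.81-fold (log2 1.93, SE 0.261, FDR 2.07e-06) and 74.6-fold (log2 6.22, SE 0.296, FDR 9.93e-18). In KO the libraries had 13.4, 13.5 and 14 CPM untreated, 39.7, 33 and 36.3 after 4 h of OVA and 1219, 1161 and 1209.9 after 4 h of Jurkat cells. The KO rises were 2.67-fold (log2 1.42, SE 0.27, FDR 0.000598) and 87.9-fold (log2 6.46, SE 0.301, FDR 6.96e-18). At 30 min neither treatment passed the test in WT: 16.7, 17.4 and 19.6 CPM with OVA and 18.5, 21.2 and 16.1 with Jurkat cells lay around the untreated level. The KO libraries at 30 min of Jurkat cells were spread widely, at 72.6, 18.3 and 24 CPM, and the rise there (log2 1.49, SE 0.27, FDR 0.000234) shrank without replicate 1 but kept its call (log2 0.63, SE 0.116, FDR 0.000387).

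Cd83, a marker of dendritic cell maturation, responded early. WT libraries had 135, 131 and 132 CPM untreated, 176, 169 and 171 after 30 min of OVA and 213, 214 and 179 after 30 min of Jurkat cells. The treated groups stood above every untreated library, by 1.3-fold (log2 0.37, SE 0.0716, FDR 0.000896) and 1.52-fold (log2 0.61, SE 0.0716, FDR 2.66e-07). At 4 h Cd83 was at 246, 213 and 192 CPM with OVA (log2 0.71, SE 0.0716, FDR 1.45e-08) and at 1556, 1667 and 1634 CPM with Jurkat cells, a 12.2-fold rise (log2 3.61, SE 0.078, FDR 9.89e-26). KO cells showed calls in the same 4 comparisons, with 1.21-fold and 1.68-fold at 30 min of OVA and Jurkat cells and 1.23-fold and 10.7-fold at 4 h. Cd83 was the 1 member called in all 8 treatment comparisons.

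The TNF-family ligands differed in level. Tnfsf9, which encodes CD137 ligand, was at 19.1, 21.5 and 22.3 CPM in untreated WT; Jurkat cells gave 24.2, 26.7 and 27 CPM at 30 min and 148, 166 and 159 CPM at 4 h. The 30 min libraries lay above the untreated ones by 1.24-fold (log2 0.31, SE 0.0698, FDR 0.00144), and the 4 h libraries by 7.5-fold (log2 2.91, SE 0.0679, FDR 5.62e-25). OVA gave 26, 27.4 and 25.1 CPM at 4 h (log2 0.32, SE 0.0698, FDR 0.0012). In KO, Tnfsf9 went from 19.6 ± 1.51 CPM to 31.4 ± 3.34 CPM after 30 min (log2 0.68, SE 0.0693, FDR 2.98e-08) and 153 ± 7.04 CPM after 4 h of Jurkat cells (log2 2.97, SE 0.0681, FDR 4.15e-25). Tnfsf4, which encodes OX40 ligand, was near the lower limit of the data, with 9 to 14 counts per library in untreated WT. It had 0.20, 0.302 and 0.265 CPM there, 0.867, 0.669 and 0.296 after 4 h of OVA and 7.37, 8.91 and 7.09 after 4 h of Jurkat cells. The OVA libraries overlapped the untreated ones, and their call (log2 1.21, SE 0.318, FDR 0.00586) was lost without WT OVA replicate 1 (log2 0.87, FDR 0.071). The rise with Jurkat cells was 30.0-fold in WT (log2 4.91, SE 0.234, FDR 1.04e-17) and 28.1-fold in KO (log2 4.81, SE 0.243, FDR 4.77e-17), and there the groups did not overlap.

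The PD-1 ligands also differed. Cd274, which encodes PD-L1, was at 14, 12.4 and 12.2 CPM in untreated WT, 21, 18.6 and 18.3 after 30 min of OVA and 19.5, 21.9 and 20.4 after 30 min of Jurkat cells. All 6 treated libraries were above the 3 untreated ones (log2 0.59, SE 0.184, FDR 0.0383 for OVA; log2 0.68, SE 0.183, FDR 0.0062 for Jurkat cells). At 4 h OVA gave 36.2, 35.6 and 34.2 CPM, whereas libraries of the Jurkat group had 611, 739 and 652 CPM. The rises were 2.75-fold (log2 1.46, SE 0.178, FDR 3.92e-07) and 51.9-fold (log2 5.70, SE 0.187, FDR 1.35e-21), the latter second to Cd40 among the members. KO libraries had 13.8, 12.4 and 12.3 CPM untreated, at 4 h 25.8, 22.9 and 23.2 under OVA and 524, 495 and 524 under Jurkat cells, which gave 1.87-fold (log2 0.90, SE 0.181, FDR 0.00099) and 40.1-fold (log2 5.32, SE 0.184, FDR 5.5e-21). Pdcd1lg2, which encodes PD-L2, had 14 to 16 counts per library in untreated WT, or 0.312, 0.323 and 0.327 CPM. After 4 h of Jurkat cells it had 3.78, 4.1 and 3.97 CPM in WT, a 12.2-fold rise (log2 3.61, SE 0.213, FDR 1.96e-15), and 3.48, 3.6 and 3.84 CPM in KO, a 7.43-fold rise (log2 2.89, SE 0.198, FDR 6.57e-14). It was the 1 member not called after 4 h of OVA in WT, at 0.456, 0.389 and 0.50 CPM (log2 0.49, SE 0.281, FDR 0.227).

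**Figure D2:**
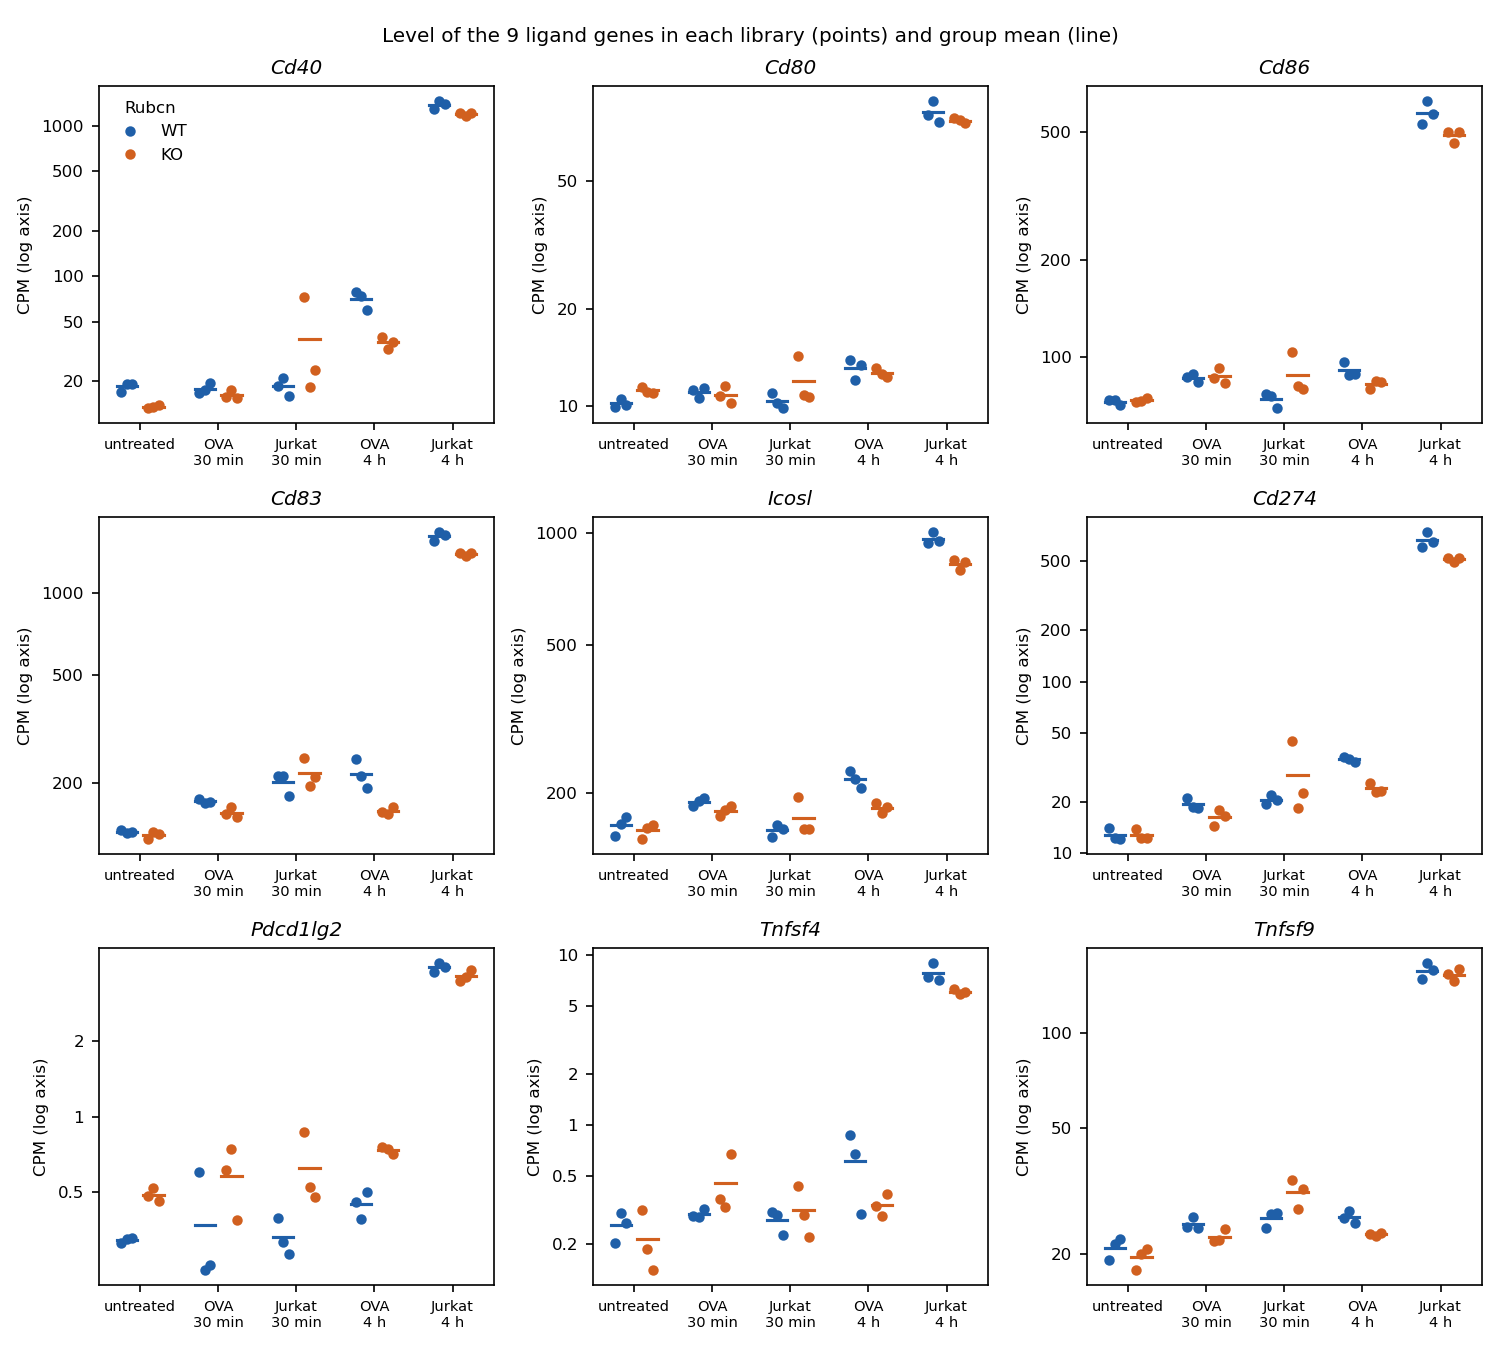
CPM of each of the 9 genes in every library (points; WT blue, KO orange) with the mean of each group of 3 as a line, on log axes that differ between panels. The libraries given Jurkat cells for 4 h lie above all others in every panel, and KO replicate 1 of Jurkat cells at 30 min stands apart for Cd40 (72.6 CPM) and Cd274 (45 CPM).

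**Figure D3:**
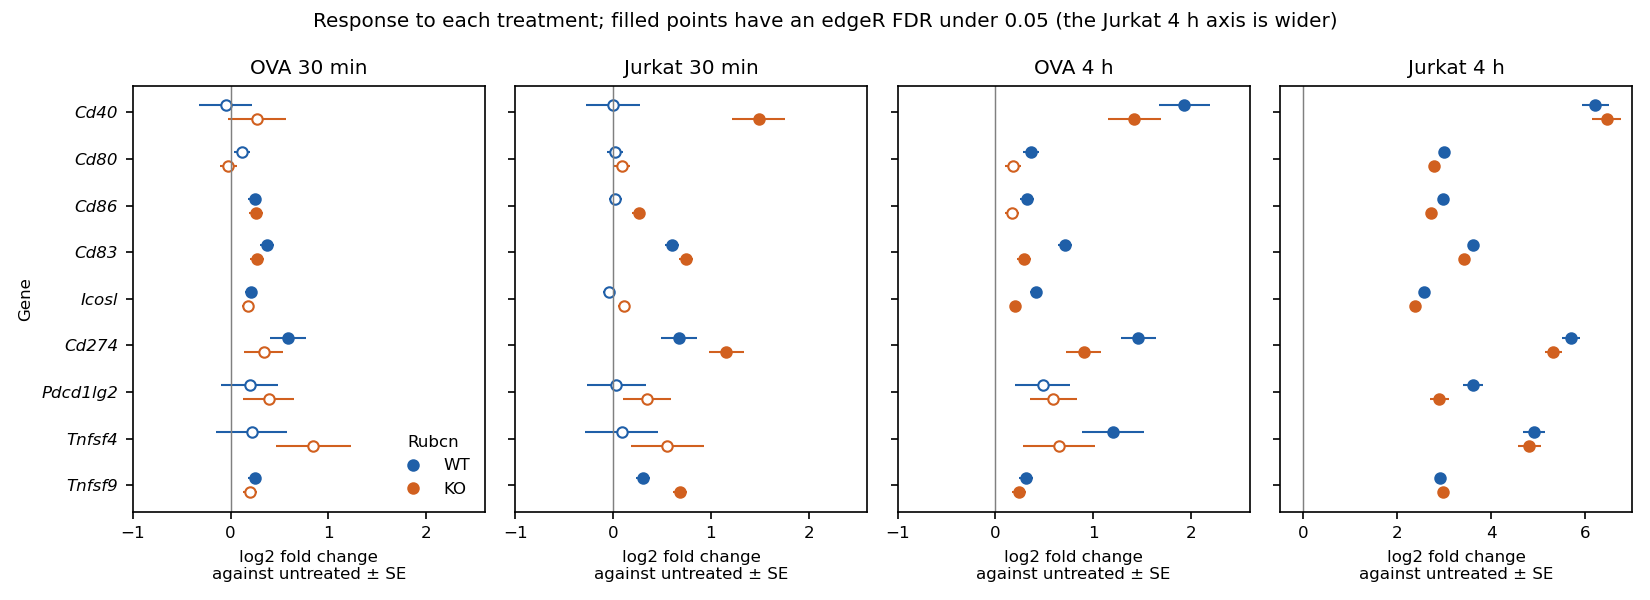
Log2 fold change of each gene against untreated cells of the same genotype (points; bars are SE) for the 4 treatments, with filled points for an FDR under 0.05 and a wider axis for Jurkat cells at 4 h. All points are filled at 4 h of Jurkat cells, and Cd83 is filled in all 4 panels for both genotypes.

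Apoptotic Jurkat cells and OVA were also compared directly, without the untreated libraries. At 4 h all 9 members were higher with Jurkat cells in both genotypes, where 37.2% of all genes were called higher in WT and 36.3% in KO. In WT the differences ran from 4.44-fold for Icosl (log2 2.15, SE 0.0601, FDR 6.34e-23) to 19.6-fold for Cd40 (log2 4.29, SE 0.265, FDR 6.74e-15), and Cd274 followed at 18.9-fold (log2 4.24, SE 0.17, FDR 2.4e-19). In KO they ran from 4.53-fold for Icosl to 32.9-fold for Cd40. At 30 min 3 of 9 members differed in WT, where 24.3% of all genes were called: Cd83 was higher with Jurkat cells (log2 0.23, SE 0.0712, FDR 0.0171), and Cd86 (log2 -0.22, SE 0.0697, FDR 0.0196) and Icosl (log2 -0.25, SE 0.0584, FDR 0.00199) were lower. Only Icosl kept its call without WT OVA replicate 2. In KO 4 of 9 were higher with Jurkat cells at 30 min, against 5.3% of all genes: Cd40 (log2 1.22, SE 0.28, FDR 0.00497), Cd274 (log2 0.82, SE 0.186, FDR 0.00436), Cd83 (log2 0.48, SE 0.0722, FDR 4.48e-05) and Tnfsf9 (log2 0.49, SE 0.0725, FDR 4.2e-05). Without KO replicate 1 the call of Cd40 was lost (log2 0.36, SE 0.12, FDR 0.0714), and Cd274 differed by less (log2 0.34, SE 0.0977, FDR 0.0353). The part of reads from the human cells in the members' counts was not tested.

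The second question was how KO and WT cells differed within each condition. The members differed mainly after 4 h: 4 of 9 were lower in KO with OVA, where 6.35% of all genes were called lower, and 3 of 9 with Jurkat cells, where 13.5% were. Cd83 and Icosl were lower in KO in both. In untreated cells and after 30 min of OVA 0 of 9 members were called by edgeR, against 9.97% and 12.4% of all genes. At an unadjusted p under 0.05 these were 1 and 2 members, and DESeq2 called 0 in both. After 30 min of OVA the KO libraries of Cd83 (151 to 163 CPM) still lay below those of WT (169 to 176 CPM). Cd274 (14.5 to 17.8 against 18.3 to 21 CPM) and Tnfsf9 (22 to 24 against 24.2 to 26.1 CPM) were lower without overlap too, and Tnfsf4 was higher. Untreated Cd80 was higher in every KO library (11 to 11.5 against 9.97 to 10.5 CPM). The share of all genes without overlap was not computed. After 30 min of Jurkat cells 4 of 9 were higher in KO, against 5.58% of all genes called higher, and 0 of 9 were called without KO replicate 1, when 7.59% of all genes were and 2 members had an unadjusted p under 0.05. A fit of the compared libraries alone also called 0. The members' median log2 difference, KO against WT, was -0.26 with OVA and -0.22 with Jurkat cells at 4 h, beside -0.00 and -0.01 over all genes. Without that library the calls numbered 1 in untreated cells, 1 after 30 min of OVA, 5 after 4 h of OVA and 4 after 4 h of Jurkat cells, where 10.2%, 13.1%, 13% and 23.1% of all genes were called.

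After 4 h of OVA the KO cells had less Cd40, Cd274, Cd83 and Icosl. Cd40 stood at 39.7, 33 and 36.3 CPM in KO against 78.7, 73.8 and 59.5 in WT, the largest difference among the members with all libraries (log2 -0.96, SE 0.248, FDR 0.00913). KO thus held 0.515 times the WT level, and the highest KO library lay below the lowest WT library. Cd274 had 25.8, 22.9 and 23.2 CPM in KO against 36.2, 35.6 and 34.2 in WT, 0.679 times the WT level (log2 -0.56, SE 0.167, FDR 0.0252). Its call was lost without any 1 of 4 libraries (WT replicates 1 and 2, KO replicates 2 and 3; FDR up to 0.09), although the groups did not overlap. Cd83 had 158, 154 and 164 CPM in KO against 246, 213 and 192 in WT (log2 -0.45, SE 0.0713, FDR 4.77e-05). Icosl had 188, 176 and 183 CPM in KO against 229.7, 218 and 206 in WT (log2 -0.26, SE 0.0583, FDR 0.0031). For both, each KO library was below each WT library, and KO held 0.732 and 0.838 times the WT level. Cd86 (79.8, 84.7 and 83.9 against 96.9, 88.2 and 88.7 CPM) and Tnfsf9 (23.1, 22.8 and 23.4 against 26, 27.4 and 25.1 CPM) did not overlap either and were lower in KO. Neither passed the test, with log2 -0.14 (SE 0.0695, FDR 0.218) for Cd86 and log2 -0.18 (SE 0.0694, FDR 0.0956) for Tnfsf9. Both passed in a fit of the compared libraries alone (FDR 0.0353 and 0.016). Tnfsf4 had 0.331, 0.289 and 0.39 CPM in KO against 0.867, 0.669 and 0.296 in WT, with WT replicate 3 inside the KO range, and did not pass (log2 -0.82, SE 0.302, FDR 0.076). Without that WT replicate Tnfsf4 was called lower, at log2 -1.18 (SE 0.266, FDR 0.00293), a larger difference than that of Cd40.

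Pdcd1lg2 went the other way with OVA. It had 0.754, 0.745 and 0.707 CPM in KO against 0.456, 0.389 and 0.50 in WT at 4 h, higher in every KO library, and just missed the threshold (log2 0.71, SE 0.242, FDR 0.0532). It passed without KO replicate 1 of Jurkat cells at 30 min (FDR 0.0334), with scaling to total counts (FDR 0.04) and in a fit of the compared libraries alone (FDR 0.043). In untreated cells it had 0.483, 0.518 and 0.461 CPM in KO against 0.312, 0.323 and 0.327 in WT, again without overlap (log2 0.60, SE 0.277, FDR 0.201). These levels rest on 14 to 41 counts per library, and after 30 min of OVA the groups overlapped (log2 0.79, SE 0.273, FDR 0.0537). After 4 h of Jurkat cells its log2 difference was -0.12 (SE 0.157, FDR 0.644). Its neighbour Cd274 showed no such difference in untreated cells, at 13.8, 12.4 and 12.3 CPM in KO against 14, 12.4 and 12.2 in WT (log2 -0.00, SE 0.191, FDR 1), and the sign of its log2 value turned with scaling to total counts.

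After 4 h of Jurkat cells the members called lower in KO were Cd86, Cd83 and Icosl. Cd86 had 499, 463 and 499.9 CPM in KO against 529, 622 and 568 in WT, 0.85 times the WT level (log2 -0.23, SE 0.0668, FDR 0.0112). Cd83 had 1395, 1366 and 1395 against 1556, 1667 and 1634 CPM (log2 -0.22, SE 0.070, FDR 0.0202) and Icosl 846, 796 and 835 against 939, 1005 and 955 CPM (log2 -0.23, SE 0.0575, FDR 0.00486). In all 3 genes every KO library lay below every WT library. With scaling to total counts the 3 remained lower in KO but none of the 9 members passed the test (Cd86 log2 -0.15, FDR 0.075; Cd83 -0.14, FDR 0.12; Icosl -0.15, FDR 0.051), while 27.1% of all genes did. Without WT replicate 2, or without KO replicate 2, which differed most from its replicates over all genes, Icosl was the 1 member called. Cd274 (524, 495 and 524 against 611, 739 and 652 CPM) and Cd40 (1219, 1161 and 1209.9 against 1303, 1455 and 1392 CPM) also had lower values in KO without overlap, and neither passed the test (log2 -0.37, SE 0.146, FDR 0.0625; log2 -0.21, SE 0.229, FDR 0.559). Cd274 passed it without the library that stands apart (log2 -0.38, SE 0.0662, FDR 0.00012). Tnfsf4 was lower in KO without overlap too (6.29, 5.85 and 6.05 against 7.37, 8.91 and 7.09 CPM, log2 -0.36) and was not called. A fit of the compared libraries alone also called Cd40, Cd274 and Tnfsf4 lower (FDR 0.0225, 0.0023 and 0.0325). Tnfsf9 (-0.04, FDR 0.658) and Cd80 (-0.08, FDR 0.371) had the log2 differences nearest to 0 here, and that of Tnfsf9 turned to 0.04 with scaling to total counts.

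In untreated cells Cd40 had 13.4, 13.5 and 14 CPM in KO, below the 17.1, 19.3 and 19.2 CPM of WT in every library, and did not pass the test (log2 -0.45, SE 0.279, FDR 0.385). All groups share 1 estimate of the spread of Cd40, and without the library that stands apart the same difference passed (log2 -0.45, SE 0.106, FDR 0.00503). After 30 min of Jurkat cells the 4 calls in KO were Cd40 (72.6, 18.3 and 24 against 18.5, 21.2 and 16.1 CPM), Cd86 (104, 81.3 and 79.5 against 76.8, 75.9 and 69.7), Tnfsf9 (34.4, 27.8 and 32.1 against 24.2, 26.7 and 27) and Pdcd1lg2 (0.867, 0.523 and 0.478 against 0.394, 0.316 and 0.282). Replicate 1 of KO was far above the other libraries for Cd40 and Cd86, and the Cd40 groups overlapped. The log2 difference of Cd40 was 1.05 (SE 0.263, FDR 0.0106) with that library and 0.19 (SE 0.112, FDR 0.352) without it. For Cd86 it was 0.25 (FDR 0.0214) with and 0.12 (FDR 0.238) without it. Tnfsf9 (log2 0.27, SE 0.0678, FDR 0.00956) and Pdcd1lg2 (log2 0.91, SE 0.264, FDR 0.0268) did not pass without it either (FDR 0.0766 and 0.209). Without WT replicate 3, Tnfsf9 was the 1 member called.

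**Figure D4:**
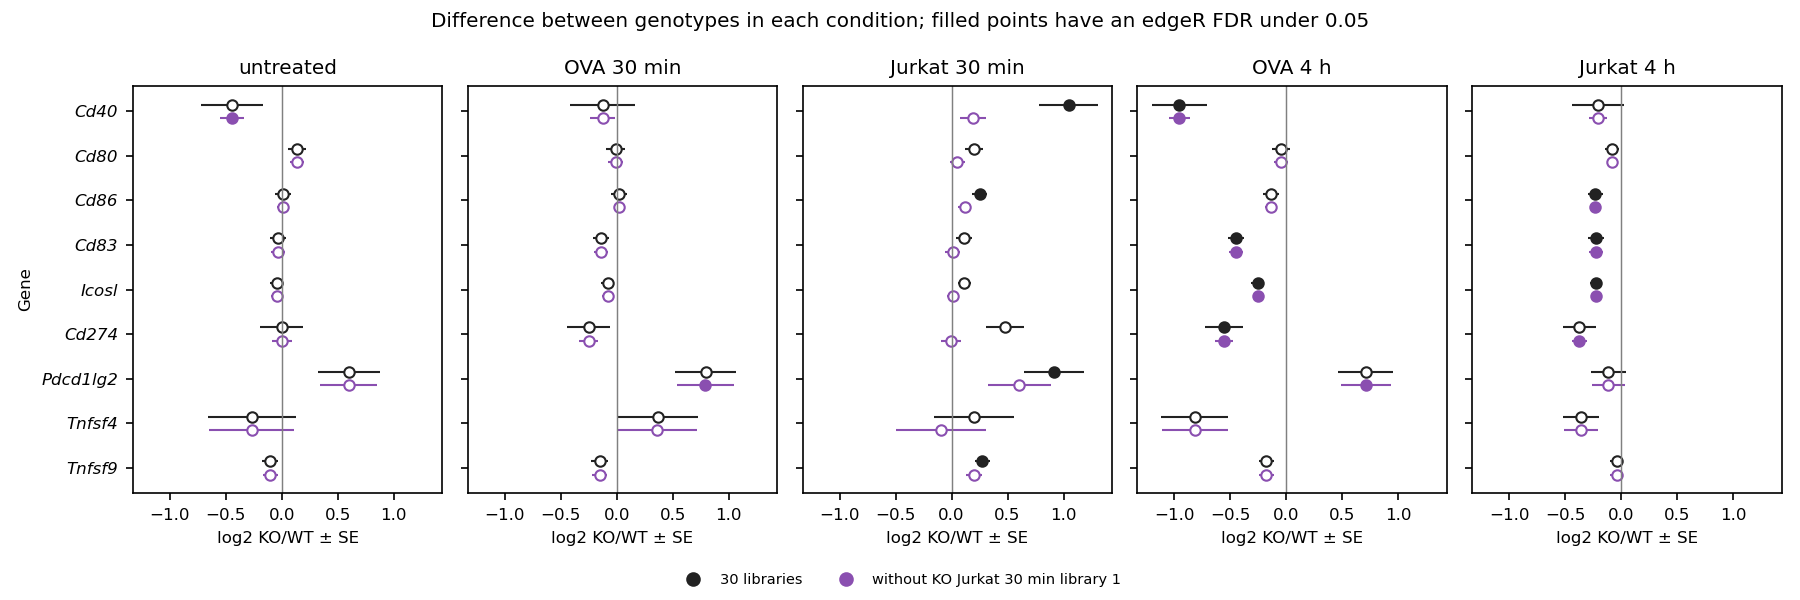
Log2 difference KO against WT of each gene in the 5 conditions (points; bars are SE), with all 30 libraries in black and without KO replicate 1 of Jurkat cells at 30 min in purple; filled points have an FDR under 0.05. Cd40, Cd83, Icosl and Cd274 are filled below 0 at 4 h of OVA in both fits, and no purple point is filled at 30 min of Jurkat cells.

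The third question was whether the response to a treatment differed between genotypes. By edgeR 0 of 9 members passed the test of that difference in each of the 4 treatments, and the share of all genes that did was 0% and 0.00675% for OVA and Jurkat cells at 30 min and 0.0405% and 4.26% at 4 h. At an unadjusted p under 0.05 the members numbered 0 and 3 for OVA and Jurkat cells at 30 min and 3 and 4 at 4 h, and DESeq2 called 1, Cd83 with OVA at 4 h (log2 -0.41, adjusted p 0.0396). The values nearest to a call were those of Cd83 with OVA at 4 h, where the KO response was smaller (log2 -0.42, SE 0.101, FDR 0.184), and of Cd86 with Jurkat cells at 4 h (log2 -0.25, SE 0.0967, FDR 0.148). Cd40 with Jurkat cells at 30 min had the largest value (log2 1.49, SE 0.383, FDR 0.315), which fell to a log2 value of 0.64 (FDR 0.253) without KO replicate 1. Without that library Cd83 and Cd274 passed for OVA at 4 h (log2 -0.42, SE 0.0876, FDR 0.0395; log2 -0.56, SE 0.119, FDR 0.0424), and Cd86 and Cd274 for Jurkat cells at 4 h (log2 -0.25, SE 0.0714, FDR 0.0407; log2 -0.37, SE 0.112, FDR 0.0492). In that fit 0.173% and 4.75% of all genes were called. In all 4 cases the rise was smaller in KO. Without KO replicate 2 of Jurkat cells at 30 min, Cd40 (log2 1.83, FDR 0.00367) and Tnfsf9 (0.46, FDR 0.015) passed for that treatment. A difference that misses the threshold does not show that the genotypes respond alike.

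Genes of the pathways around the ligands were counted by list, without the 9 members. Of 18 genes of CD40 and NF-kB signalling, 9 were higher and 0 lower after 4 h of OVA in WT, and 15 higher and 1 lower after 4 h of Jurkat cells, where 23.5% and 79.5% of all genes were called. In KO against WT after 4 h of OVA 9 of the 18 were lower and 0 higher (median log2 -0.15, beside -0.00 over all genes, of which 12.6% were called). Among these were Nfkbia (log2 -0.44, FDR 5.7e-07) and Tnfaip3 (log2 -0.51, FDR 1.97e-06), both inhibitors of NF-kB and themselves its targets, Birc3 (log2 -0.36, FDR 1.45e-05) and the subunit gene Relb (log2 -0.48, FDR 1.62e-05). Relb had 93.6 CPM in KO and 131 CPM in WT. With Jurkat cells at 4 h, 4 of the 18 were lower and 0 higher in KO, where 22.9% of all genes were called. Of 14 genes of JAK-STAT and interferon-regulatory signalling, which induces PD-L1, 5 were lower and 1 higher in KO after 4 h of OVA, with Irf9 (log2 -0.34, FDR 4.08e-06; 138 against 174 CPM) among the lower. With Jurkat cells at 4 h 6 were lower and 1 higher in KO, led by Ifnar2 (log2 -0.28, FDR 3.08e-06). In WT, 12 of these 14 rose and 2 fell after 4 h of Jurkat cells, Irf1 from 191 to 838 CPM.

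Of 14 other B7-family, nectin and adhesion ligands 12 were tested, and after 4 h of Jurkat cells 8 rose and 4 fell in WT, where 79.5% of all genes were called and 38.9% were higher. Icam1, the ligand of LFA-1, went from 96.9 to 1248 CPM, and Vsir, which encodes the checkpoint molecule VISTA, from 289 to 61.7 CPM (log2 -2.23, FDR 3.03e-26), so not every checkpoint gene rose. In KO against WT after 4 h of OVA, where 12.6% of all genes were called, 5 of the 12 were lower and 2 higher, with Lgals9, a ligand of TIM-3, at 75.6 against 108 CPM (log2 -0.51, FDR 6.22e-06) and Icam1 at 154 against 215 CPM (log2 -0.47, FDR 5.49e-05). Of 16 other TNF-family ligands 14 were tested, and 7 rose and 5 fell after 4 h of Jurkat cells in WT, near the share over all genes. Tnf rose from 10.5 to 1436 CPM and Tnfsf15 from 0.843 to 152 CPM, while Tnfsf14 fell (log2 -2.40, FDR 4.58e-19). In KO against WT after 4 h of OVA 3 were lower and 2 higher, Tnf among the lower (log2 -0.61, FDR 2.16e-05) and Tnfsf14 among the higher (log2 0.38, FDR 0.00176).

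Markers of cell states and of other cells moved with genotype. The summed level of 7 markers of mature dendritic cells, Ccr7 and Fscn1 among them, ran from 469 to 513 CPM in KO and from 690.1 to 792 CPM in WT after 4 h of OVA, and from 390.5 to 404 CPM and 511 to 550.1 CPM in untreated KO and WT cells. In both conditions KO lay below WT without overlap, as did Cd40. After 4 h of Jurkat cells the sums overlapped (6439 to 6903 and 6253 to 6731 CPM). Each of the 7 markers was detected in every group, and 6 of 7 were called lower in KO after 4 h of OVA, where 6.35% of all genes were. The exact two-sided permutation test gave p = 0.1 for each of the sums without overlap, the smallest that 3 libraries against 3 can give. The sum of 7 plasmacytoid markers was lower in KO in all 5 conditions without overlap, at 1722 to 1789.7 against 2009 to 2031 CPM after 4 h of OVA. Of all genes 5.58% to 9.37% were called higher in KO, depending on the condition. All 6 basophil or mast cell markers were called higher in KO in each condition, with a sum of 64 to 71.5 CPM against 21.9 to 26.4 CPM after 4 h of OVA, and 4 or 5 of 6 stromal markers were too (886 to 979 against 581 to 662 CPM). The part of these cells in the members' differences was not tested.

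Sums for type 1 conventional dendritic cells (7 markers) were 2523 to 2616 CPM in KO against 2671 to 2743 in WT after 4 h of OVA, and those for type 2 (6 markers) 1700.4 to 1791 against 1573 to 1608. Sums for monocytes or macrophages (7 markers) overlapped in every condition. B-cell markers (5) summed to 22.4 to 24.8 CPM in KO and 19.9 to 21.7 CPM in WT after 4 h of OVA. After 4 h of Jurkat cells 38.9% of all genes rose in WT and 37.5% in KO, and 40.6% and 41% fell. Of 18 T-lineage markers 17 were tested, and 13 rose in WT and 11 in KO after 4 h of Jurkat cells, while 3 fell in each. Their sum was then lower in KO, 284 to 288 against 309 to 344 CPM, as were Cd86, Cd83 and Icosl, and the part of the human cells in that was not tested.

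The genes whose log2 CPM ran most like each member are given as a description, since all members share the step between the 4 h Jurkat libraries and the others. Over all 30 libraries Pearson's r was 0.998 between Cd40 and both Bcl2a1d, which belongs to a family of near-identical copies, and Gbp5, an interferon-induced GTPase. Cd83 ran with Ccrl2 and Tnfaip3 (0.995 each), Cd274 with Cdkn1a and Serpinb9 (0.996 each), Cd80 with Ripk2 and Ccnd2, Cd86 with Ccnd2 and Etv6, and Icosl with Etv6 and B4galt5 (0.997 each). Tnfsf9 ran with Csrnp1 and Pim1 (0.995 each), Tnfsf4 with Bcl3 (0.983) and Pdcd1lg2 with Rcn1 (0.977). Over the 18 libraries without Jurkat cells the leading genes were Tnip1 for Cd40 (0.992), Sqstm1 for Cd274 (0.977), Jarid2 for Cd83 (0.977) and Mapkapk2 for Icosl (0.972). Lower values stood for Il1b with Cd86 (0.921), Pea15a with Cd80 (0.904), Mapkapk2 with Tnfsf9 (0.897), Gpc1 with Pdcd1lg2 (0.858) and Timm17a with Tnfsf4 (0.803). Spearman's rho put another gene first for 8 of 9 members over 30 libraries and for 7 of 9 over 18. Among the members themselves, over these 18 libraries, r was 0.95 between Cd83 and Icosl, 0.91 between Cd40 and Cd274 and 0.26 between the neighbours Cd274 and Pdcd1lg2.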

How the data were processed

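Per the labels' protocols, RNA came from Trizol lysates cleaned on columns with DNase, and the TruSeq RNA kit v2 was used. The authors deposited raw counts of reads per gene for all 30 libraries in 1 table; per the submitters' processing notes STAR 2.5, Subread, featureCounts 1.5.0-p1, DESeq2 and mm10 were used, with settings and strand not given in the sources used here. Whether reads of the human Jurkat cells were removed is not given either.

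From the counts, edgeR 4.0.16 (R 4.3.3, limma 3.58.1) fitted 1 quasi-likelihood model with a term per group to the 14808 of 25611 gene rows that passed filterByExpr, with TMM scaling, and tested 21 contrasts with Benjamini-Hochberg adjustment over all genes tested. SE is the log2 change over the root of F. Fold changes are those of the fit, and CPM per kb uses the exon union length of GENCODE M21. Depth was 9.73 M to 51.6 M counts per library, where 1 CPM is about 10 to 52 reads; depth thus limits Tnfsf4 and Pdcd1lg2 most. The fit was tested on simulated data.

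All 9 genes are described in every group. For likeness, the genes named are the leading ones by Pearson's r among genes with a mean of 5 CPM or more. Of each pathway list up to 4 called genes by smallest p are named. Of the binding partners, all that were called after 4 h of Jurkat cells in WT are named. The members and lists were chosen with earlier results of these data known. In no contrast were the correlations of all 3 pairs of same-numbered libraries over 0.1, so the numbers were not taken as pairs. Every library still correlated best with its own number in 3 contrasts, all of them in WT. Alternatives were DESeq2 1.42.0, its size factors, total counts, no filter, a filter of 5 CPM in 3 libraries, a fit of the compared groups alone, a replicate block and leaving out each library; leaving out KO replicate 1 of Jurkat cells at 30 min from every contrast was added after seeing the data.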

Additional observations from a re-analysis of the deposited data

Results flagged for a closer look

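For 3 genes the KO and WT libraries did not overlap in some conditions and the difference had opposite signs in them. The change of sign itself was not tested. The share of all genes that do so was not computed, so the count does not set the members apart. Cd86 had a log2 difference, KO against WT, of 0.25 after 30 min of Jurkat cells, where KO replicate 1 was far above the others, but -0.14 after 4 h of OVA and -0.23 after 4 h of Jurkat cells. Tnfsf4 had 0.36 after 30 min of OVA and -0.36 after 4 h of Jurkat cells, at a few counts per library in the first. Tnfsf9 had -0.15 after 30 min of OVA, 0.27 after 30 min of Jurkat cells and -0.18 after 4 h of OVA. The values for Cd86 and Tnfsf9 after 30 min of Jurkat cells and for Cd86 after 4 h of Jurkat cells passed the edgeR test, and the other 5 did not.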

How the results depend on the processing

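Of 189 results (9 genes in 21 contrasts) 82 were called, and 59 of these kept the call under every alternative run; no called value changed sign. The fit of the compared groups alone moved most counts of members called. Brackets give the count with all libraries and the share of all genes called in the fit. KO against WT gave 1 in untreated cells (0, 8.4%), 0 after 30 min of Jurkat cells (4, 6.4%), 7 after 4 h of OVA (4, 17.7%) and 6 after 4 h of Jurkat cells (3, 20.2%). KO cells gave 3 with 30 min of Jurkat cells against untreated (5, 10.5%) and 2 against OVA (4, 5.29%). With 4 h of OVA against untreated, Tnfsf4 was lost in WT, which left 7 (8, 21.4%), and Cd86 gained in KO, which made 6 (5, 14.5%). The difference in response to OVA at 4 h gave 1 (0, 0.057%), as did DESeq2 (0.169% of all genes). Scaling to total counts gave 0 for KO against WT after 4 h of Jurkat cells (3); it shifted the median of all genes by -0.42 in WT and -0.37 in KO in the 4 h Jurkat response, and moved the share of calls that were higher from 48.9% to 29.0% there in WT, from 47.8% to 29.2% in KO, from 40.9% to 74.8% in KO against WT after 4 h of Jurkat cells, from 49.5% to 64.5% after 4 h of OVA and from 50.5% to 63.8% after 30 min of OVA. With the replicate block the counts were 4, 4 and 3 for KO against WT after 30 min of Jurkat cells, 4 h of OVA and 4 h of Jurkat cells, and no call changed; every library correlated best with its own number in 3 contrasts. The filter of 5 CPM drops Pdcd1lg2, which has no value there.

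Leaving out 1 library gave these ranges of members called. Shares of all genes called are not given for most of these fits, so the ranges do not set the members apart. KO against WT ranged from 0 to 1 in untreated cells (1 without KO Jurkat 30 min replicate 1), 0 to 1 after 30 min of OVA (1 without WT replicate 1, KO replicate 3 or that library), 0 to 6 after 30 min of Jurkat cells (0 without KO replicate 1, 1 without WT replicate 3) and 1 to 4 after 4 h of Jurkat cells (1 without WT or KO replicate 2). Against untreated cells, OVA at 30 min ranged from 1 to 5 in WT (3 without untreated replicate 1 or 3 or OVA replicate 1, 2 without untreated replicate 2, 1 without OVA replicate 2) and from 0 to 4 in KO, and OVA at 4 h in KO from 3 to 7 (3 without untreated replicate 1 or OVA replicate 1 or 3). Jurkat cells against OVA at 30 min in WT ranged from 1 to 3 (1 without OVA replicate 2). The differences in response ranged from 0 to 2 for Jurkat cells at 30 min (2 without KO replicate 2) and for OVA and Jurkat cells at 4 h (2 without KO Jurkat 30 min replicate 1; 1 for OVA without WT OVA replicate 3). The log2 difference of Cd274, KO against WT, after 30 min of Jurkat cells ranged from -0.0038 to 0.72. The cause of these moves was not tested.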

Other observations

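Of 8 genes that encode binding partners of the members 7 were tested. In WT against untreated cells 3 rose and 2 fell after 4 h of Jurkat cells, where 38.9% of all genes were called higher and 40.6% lower. Icos (log2 1.72, FDR 2.02e-08; 0.936 to 3.1 CPM), Pdcd1, which encodes PD-1 (log2 1.33, FDR 0.000242), and Tnfrsf9, the receptor of CD137 ligand (log2 0.33, FDR 0.0464), were higher, and Cd28 (log2 -1.20, FDR 1.06e-13; 52.9 to 23 CPM) and Ctla4 (log2 -1.08, FDR 0.00416) were lower. The T-lineage gene Lef1 rose from 0.285 to 38.4 CPM in the same libraries, and the part of the Jurkat cells in these values was not tested. Of 4 genes that act on the turnover of CD86 or PD-L1 protein, March1, a ubiquitin ligase that removes CD86 from the surface, fell with 4 h of Jurkat cells in WT from 163 to 49.6 CPM (log2 -1.72, FDR 4.72e-19), as did Cmtm4, from 53.4 to 15.7 CPM (log2 -1.77, FDR 3.27e-24). March8 (log2 0.42, FDR 8.48e-06) and Cmtm6 (log2 0.26, FDR 9.87e-07), which protects PD-L1 from degradation, rose. In KO against WT after 4 h of Jurkat cells Cmtm6 was lower (log2 -0.24, FDR 9.74e-05) and Cmtm4 higher (log2 0.27, FDR 0.000181), and after 4 h of OVA March8 was higher (log2 0.32, FDR 0.00299).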
